A study of Mus musculus with 8 samples.

Results

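The miRNA mmu-miR-34a was examined in mouse liver during CCL4-induced fibrosis. It was taken by its name, mmu-miR-34a, from the scanner output of Agilent mouse miRNA arrays, and it is 1 of the 567 mouse miRNAs on the array. The rows of mmu-miR-34b and mmu-miR-34c, 4 in number, and of mmu-miR-449, 3 in number, were read beside it because they belong to the same seed family. Male C57BL/6J mice, 8 weeks old at the start, received CCL4 as a 10% solution in olive oil into the peritoneum, and control mice received olive oil alone. CCL4 is a solvent that injures hepatocytes, and repeated dosing leaves fibrous scar in the liver. Injections were given 2 times a week for the first 4 weeks and 1 time a week thereafter, and livers were taken at 4, 6 and 8 weeks. Total liver RNA was read on 8 arrays, with 1 CCL4 array at 4 weeks, 2 at 6 weeks, 2 at 8 weeks and 1 olive oil array at each week. The sources used here do not say whether an array held 1 mouse or a pool, so n counts arrays and p-values measure only the spread between these arrays.

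The gene of miR-34a is a direct transcriptional target of p53, the transcription factor activated by DNA damage and other cell stress. Mature miR-34a is cut from its own hairpin transcript and represses mRNAs with matching 3′ sites, among them those of Bcl2, an inhibitor of apoptosis, of Sirt1, a deacetylase that acts on p53, and of Met, the receptor of hepatocyte growth factor. The relatives miR-34b and miR-34c come from 1 shared transcript at another locus and are best known from lung and testis, while the miR-449 miRNAs are known from multiciliated epithelia.

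The mature sequences that share the seed of miR-34a are shown because the seed, bases 2 to 8 from the 5′ end, pairs with target mRNAs and defines the family. The seed is in capitals.
mmu-miR-34a-5p: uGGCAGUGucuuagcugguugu
mmu-miR-34b-5p: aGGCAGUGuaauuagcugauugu
mmu-miR-449a-5p: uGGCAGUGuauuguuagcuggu
mmu-miR-449c-5p: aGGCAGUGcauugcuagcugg

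These sequences are from RefSeq on the mouse build GRCm38.p6, whose table gave 1738 mature miRNAs, and the seed GGCAGUG was held by 4 of them (0.23%). A further member of the family, miR-34c-5p, had no mature entry in that table, so it is neither shown nor counted. The miR-449b read on the array is also not among the 4. The 22 bases of miR-34a lie on the plus strand at chr4:150068473-150068494, those of miR-34b-5p on the minus strand at chr9:51103610-51103632, and those of miR-449a and miR-449c on the plus strand at chr13:113037549-113037570 and chr13:113036008-113036028. Aligned from the 5′ end without gaps, miR-449a had the same base as miR-34a at 15 of 22 positions, miR-449c at 12 of 21 and miR-34b-5p at 11 of 22. Beyond the seed the match was 7 of 14 positions for miR-449a, 5 of 13 for miR-449c and 4 of 14 for miR-34b-5p. The relatives were selected by the seed, and an alignment with gaps, which could pair more of the later bases, was not made.

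The hairpin of miR-34a is shown to place the mature strand, which is in capitals.
Mir34a hairpin: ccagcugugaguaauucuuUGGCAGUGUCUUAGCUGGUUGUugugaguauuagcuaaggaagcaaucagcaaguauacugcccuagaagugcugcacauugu

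It spans 102 bases at chr4:150068454-150068555 on the plus strand of GRCm38.p6, with miR-34a at bases 20 to 41 and the opposite strand, miR-34a-3p, at bases 64 to 84. Among the annotated RefSeq genes none overlapped the hairpin. The nearest on the lower side was the long noncoding RNA Gm13067, which ended 9737 bases away, and the nearest on the higher side was Gpr157, which encodes an orphan G protein-coupled receptor, 18948 bases away. The rows read on the array are of mature miR-34a, so they carry no measurement of the primary transcript or of the hairpin.

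The software called miR-34a detected on all 8 arrays. Its total signal, before any scaling between arrays, was 234.9 fluorescence units in CCL4 liver at 4 weeks. The pair of CCL4 arrays at 6 weeks read 202.2 and 246.4 units, and the pair at 8 weeks read 423.1 and 379.1 units. In olive oil liver the signals were 60.3, 69.7 and 114.8 units in the order of the weeks. The highest signals were those of both CCL4 arrays of 8 weeks, and even the dimmest CCL4 array was brighter than any olive oil array. The error that the software estimated for these signals was 7.88% to 7.98% of the CCL4 signals and 8.31% to 9.70% of the olive oil signals.

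For the comparisons signals were expressed relative to the 75th percentile of all mouse miRNAs on the same array, the scaling that the methods of the study describe, and taken to log2. The scaled log2 level of miR-34a in CCL4 was 4.63 at 4 weeks, 4.95 and 5.03 at 6 weeks, and 5.26 and 5.45 at 8 weeks. In olive oil the scaled log2 levels were 3.56, 3.89 and 4.15 in the order of the weeks. The groups again did not overlap. Of the 133 miRNAs tested, those detected on at least 3 arrays, the lowest CCL4 value exceeded the highest olive oil value for 12 (9.02%) on the scaled values and for 19 (14.3%) on the unscaled signals. On this scale the arrays of the same CCL4 group lay close together for miR-34a, with a ratio of levels of 1.05 at 6 weeks and 1.14 at 8 weeks. The ratios were 1.22 and 1.12 on the unscaled signals. With the 75th percentile of only the miRNAs detected on all arrays as divisor they were 1.27 and 1.11, so the closeness at 6 weeks depended on the scaling.

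**Figure D1:**
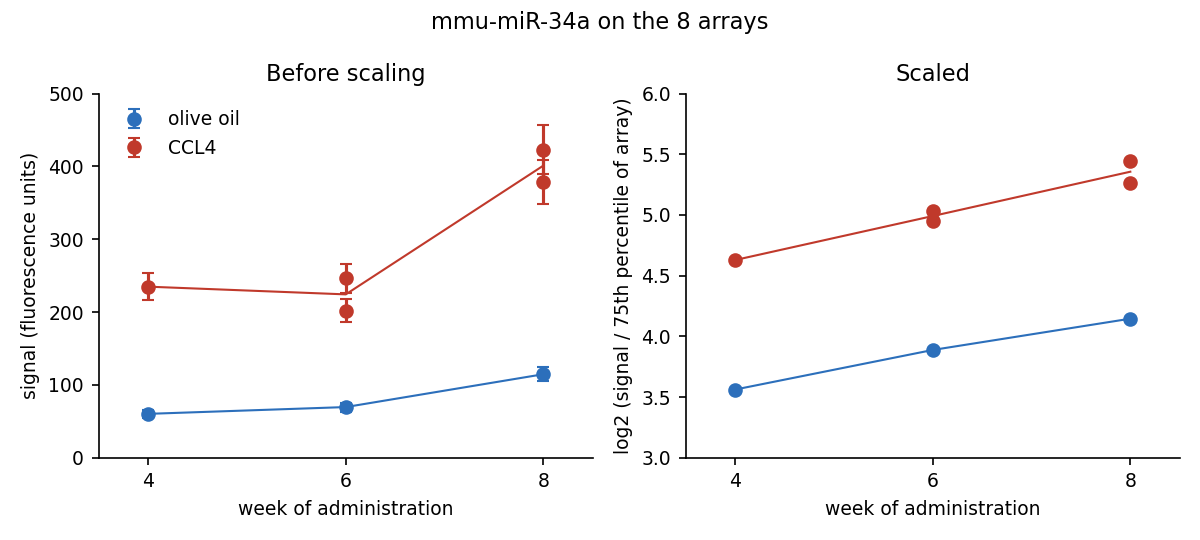
Level of mmu-miR-34a on each of the 8 arrays by week (x axis, weeks of administration), before scaling on the left (y axis, fluorescence units, bars are the software's error estimate) and scaled on the right (y axis, log2 of the signal over the 75th percentile of the array). Each point is an array and lines join group means. The CCL4 arrays run from 202.2 to 423.1 units and the olive oil arrays from 60.3 to 114.8 units.

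Over all weeks the level of miR-34a was 2.19-fold higher in CCL4 liver than in olive oil liver (log2 fold change 1.13, SE 0.141, 95% interval 0.82 to 1.44, adjusted p = 5.235e-04 by limma with week as a factor). The CCL4 arrays had a mean scaled log2 level of 5.06 ± 0.31 (SD, n = 5), and the olive oil arrays one of 3.87 ± 0.29 (SD, n = 3). An exact two-sided permutation test of the 5 CCL4 against the 3 olive oil arrays gave p = 0.0357, the smallest value that the 56 possible splits allow, on the scaled values and on the unscaled signals, which follows from groups that do not overlap and adds nothing to that observation. In the same fit 18 of the 133 miRNAs (13.5%) passed as higher in CCL4 and 47 (35.3%) as lower. Without scaling 34 passed as higher and 0 as lower, so the split of the other miRNAs rested on the scaling while the direction for miR-34a did not. The study chose miR-34a on these same arrays as 1 of its miRNAs raised in fibrosis, so its difference here is not independent evidence.

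By the size of the fitted log2 fold change miR-34a had rank 4 of the 133 tested. Ahead of it were mmu-miR-199b*, the passenger strand of a hairpin known from fibroblasts, with 1.46 (adjusted p = 2.153e-04 by limma), and mmu-miR-335-5p and mmu-miR-379. The last pair was detected on 4 and 3 of the CCL4 arrays and below detection on each olive oil array, so no fold is given for either. Among the miRNAs detected on all 8 arrays, miR-34a was therefore second in size after miR-199b*. The unscaled signal of miR-199b* in CCL4 was 76.9 units at 4 weeks, 35.8 and 55.6 units at 6 weeks, and 93.8 and 70.9 units at 8 weeks. Its olive oil signals were 14.99, 10.2 and 20.9 units, lower at 6 weeks than at 4 weeks, where miR-34a had 69.7 and 60.3 units.

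The difference held in size at each week. The scaled level of miR-34a was 2.09-fold higher in CCL4 at 4 weeks (95% interval 1.34 to 3.28, adjusted p = 0.00640 by limma), 2.15-fold at 6 weeks (1.46 to 3.16, adjusted p = 0.00346) and 2.31-fold at 8 weeks (1.57 to 3.41, adjusted p = 9.377e-04). Of all 133 miRNAs, 12.0%, 6.02% and 6.02% passed as higher at 4, 6 and 8 weeks. The test of whether the difference changed between weeks gave F = 0.0633 and an adjusted p of 0.984 by limma, while 8 miRNAs (6.02%) passed that test. The intervals of the weekly folds overlap widely. A level at least 2-fold higher in CCL4 at every week was seen for 3 of the 133 miRNAs (2.26%), counted without a test, namely miR-34a, miR-199b* and miR-335-5p, the last of them only by values below detection in olive oil, at 6 weeks at the floor. With the signals left unscaled the weekly folds of miR-34a were 3.89, 3.20 and 3.49. Each week holds 1 olive oil array, and 4 weeks also 1 CCL4 array, whose spread is assumed to equal that of the CCL4 pairs. The calls at 6 and 8 weeks rested on the CCL4 arrays of 8 weeks, since without replicate 1 of them the adjusted p was 0.0519 at 6 weeks and 0.0515 at 8 weeks, and without replicate 2 it was 0.0519 and 0.210. The call at 8 weeks was also lost with the percentile of miRNAs detected on all arrays (adjusted p = 0.0541) and with quantile normalization (0.0515), and that at 6 weeks with normexp background correction (0.0664).

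The scaled group means of miR-34a had the same order by week in both treatments, and 1 of the 6 contrasts between weeks within a treatment passed the threshold. In CCL4 the scaled log2 level was 0.36 higher at 6 than at 4 weeks (95% interval -0.20 to 0.92, adjusted p = 0.350 by limma) and 0.37 higher at 8 than at 6 weeks (-0.091 to 0.82, adjusted p = 0.457). The difference of 8 from 4 weeks in CCL4 was 0.73 on the log2 scale, a fold of 1.66 (95% interval of the log2 difference 0.17 to 1.29, adjusted p = 0.0428 by limma). It passed the threshold, as did 24.1% of all tested miRNAs in the higher direction, and the median difference of the 113 miRNAs detected on all arrays was 0.39. The call was lost without replicate 1 (adjusted p = 0.177) or replicate 2 (adjusted p = 0.361) of the CCL4 arrays of 8 weeks, and under 3 other scalings and normexp. In olive oil the level was 0.33 higher at 6 than at 4 weeks (-0.32 to 0.97, adjusted p = 0.973) and 0.26 higher at 8 than at 6 weeks (-0.39 to 0.90, adjusted p = 0.998). From 4 to 8 weeks of olive oil the log2 difference was 0.58, a fold of 1.50, with an interval of -0.062 to 1.23 and an adjusted p of 0.997 by limma, and it did not pass.

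From low to high the group levels of miR-34a ran olive oil at 4, 6 and 8 weeks and then CCL4 at 4, 6 and 8 weeks. No neighbours in this order differed beyond the threshold. The step between the treatments, from olive oil at 8 weeks to CCL4 at 4 weeks, was 0.48 on the log2 scale (95% interval -0.16 to 1.13, adjusted p = 0.218 by limma), so the oldest control liver and the earliest CCL4 liver were not separated by this test. A comparison of 8 with 4 weeks over both treatments, added after the values had been seen, gave a log2 difference of 0.67, a fold of 1.59 (0.28 to 1.06 on the log2 scale, unadjusted p = 0.00314 and adjusted p = 0.105 by limma). It did not pass, and 2 of 133 miRNAs (1.50%) did.

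Scaled group means that were higher at each later week in both treatments were seen for 2 of 133 miRNAs (1.50%), miR-34a and mmu-let-7b. This was read without a test and depended on the scaling. On the unscaled signals the CCL4 mean of miR-34a at 6 weeks was lower than the value at 4 weeks by a log2 difference of -0.074, and 26 miRNAs (19.5%) showed such an order. Position on the slide went with week in part, since all arrays of 4 weeks lay in row 1 of the slide and all arrays of 8 weeks in row 2, with the arrays of 6 weeks in both. A slide row term would rest on 1 array, replicate 2 of the CCL4 arrays of 6 weeks, which was the only array of 6 weeks in row 2, so week and slide row cannot be told apart here. The treatments were spread over both rows.

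The array reads miR-34a with 2 probes, one of 19 and one of 20 bases, each printed as 10 spots. Per the file annotation on mm9 the longer probe matches chr4:149442584-149442603 and the shorter chr4:149442585-149442603, so they differ by a single base at one end and are not independent readings. Of the 160 spots on the 8 arrays, 5 carried outlier marks and were left out, and no mouse miRNA spot was saturated. The mean spot signal of the 20-base probe was 2.73 to 2.96 times that of the 19-base probe on the CCL4 arrays and 2.72 to 2.89 times on the olive oil arrays.

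The mean spot signal of the 19-base probe in CCL4 was 88.1 units at 4 weeks, 81.4 and 91.0 at 6 weeks, and 150.1 and 147.6 at 8 weeks, against 24.4, 27.0 and 44.5 on the olive oil arrays. For the 20-base probe it was 240.5 units at 4 weeks, 223.3 and 269.4 at 6 weeks, and 437.4 and 423.7 at 8 weeks of CCL4, against 66.5, 78.0 and 128.4 on the olive oil arrays. Spots of the same probe on the same array varied with a coefficient of variation of 5.04% to 14.8% (median 8.71%) for the 19-base probe and of 3.32% to 10.7% (median 5.33%) for the 20-base probe. The dimmest CCL4 spot was above the brightest olive oil spot for both probes, 73.1 against 51.4 units for the shorter and 210.4 against 139.3 units for the longer. The scaled folds of the shorter probe were 1.94, 2.13 and 2.22 at 4, 6 and 8 weeks, and those of the longer were 1.95, 2.11 and 2.22, so both probes gave nearly the same difference at each week. Spots of an array share its RNA, so they measure technical spread and were not used as replicates.

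**Figure D2:**
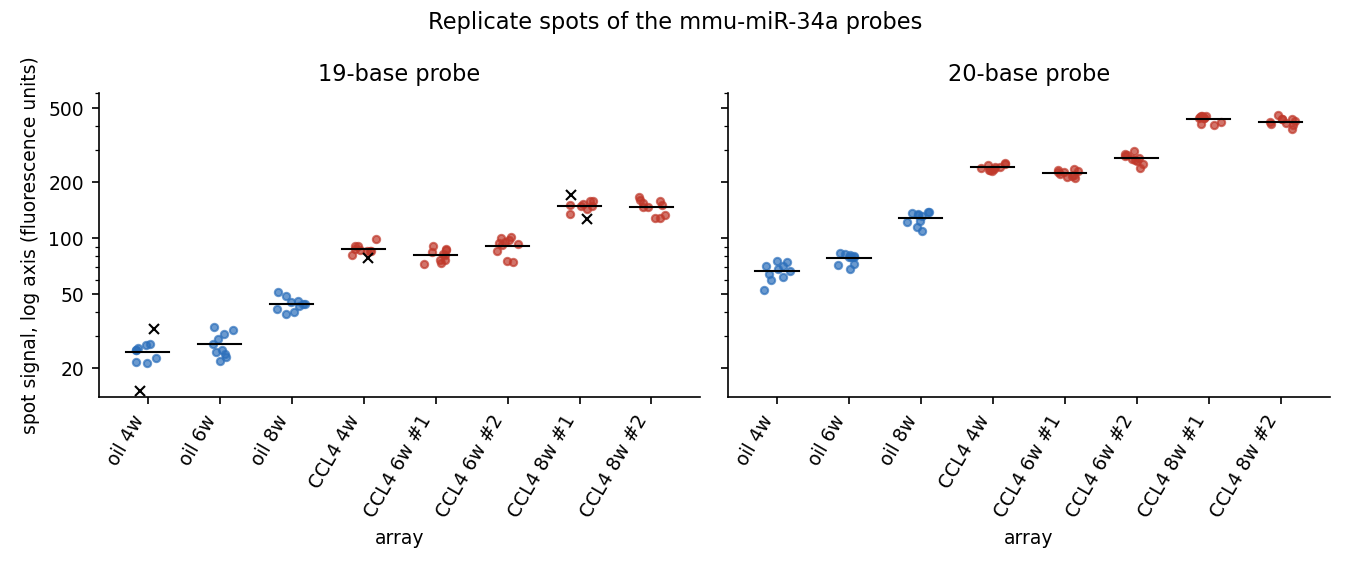
Signal of each replicate spot (y axis, fluorescence units on a log axis) of the 19-base and the 20-base probe of mmu-miR-34a on each array (x axis, olive oil in blue and CCL4 in red, # marks the replicate). Black lines are means of the spots kept and crosses are the 5 spots with outlier marks. No CCL4 spot that was kept falls to the level of an olive oil spot of the same probe.

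The size of the fold change of miR-34a depended on how the arrays were put on a common scale. The log2 fold change over all weeks was 1.13 with the percentile of all mouse miRNAs, 1.33 with the percentile of those detected on all arrays, 1.29 after quantile normalization, 1.09 after normexp background correction and 1.80 with no scaling. All of these passed the threshold. The median log2 fold change of the 113 miRNAs detected on all arrays moved from -0.36 with the main scaling to 0.31 with none. Relative to that median the log2 fold change of miR-34a was 1.37 under quantile normalization and 1.00 under normexp. Under the main scaling and under no scaling it was 1.49, equal by construction since a divisor per array shifts every miRNA alike. Relative to the median of its own week it was 1.63, 1.55 and 1.35 at 4, 6 and 8 weeks.

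**Figure D3:**
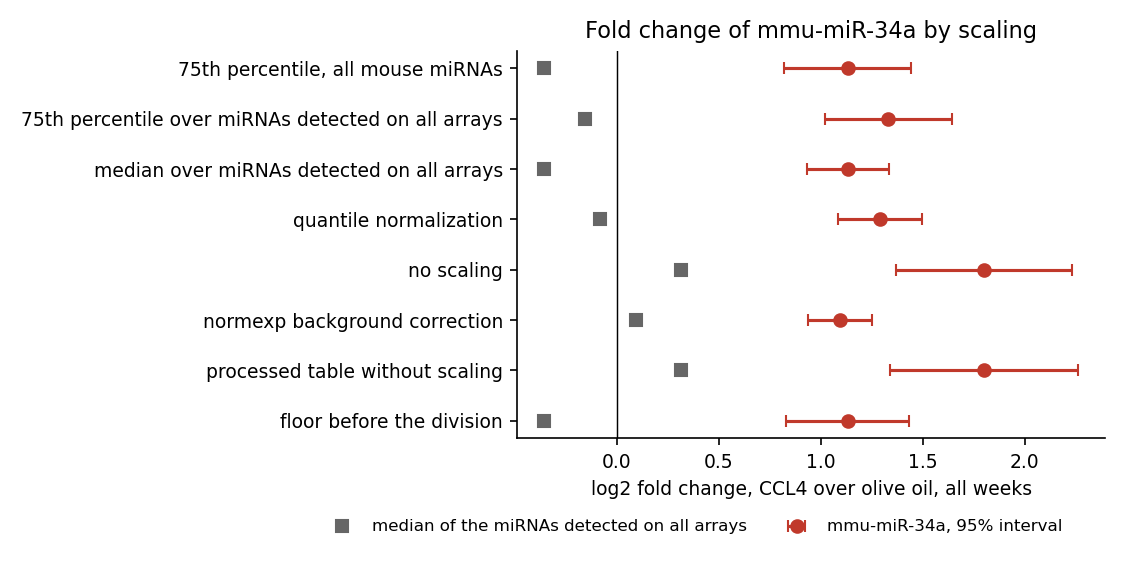
Log2 fold change of mmu-miR-34a over all weeks, CCL4 over olive oil (x axis), under each way of scaling the arrays (y axis). Red points with bars are miR-34a with 95% intervals and grey squares are the median of the 113 miRNAs detected on all arrays. The estimate for miR-34a runs from 1.09 to 1.80 and lies above the median in each row.

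The seed relatives of miR-34a were near or below background in these livers. The rows of mmu-miR-34b-3p, mmu-miR-34c, mmu-miR-34c*, mmu-miR-449a, mmu-miR-449b and mmu-miR-449c were detected on 0 of the 8 arrays. The signal of miR-34c, which carries the strand that is abundant in testis, was -0.655 to 5.45 units on CCL4 arrays and -3.38 to -0.744 units on olive oil arrays. The signal of miR-449a was -3.11 to 0.576 units over all arrays, that of miR-449b -2.86 to 0.819 and that of miR-449c -5.71 to -1.74. The row of mmu-miR-34b-5p was detected on 1 array, the CCL4 array of 4 weeks, with 8.07 units, and gave 1.20 to 3.63 units on the other CCL4 arrays and -1.83 to 1.37 units on the olive oil arrays. No member of the miR-34b and miR-34c locus or of the miR-449 locus passed the detection filter, so none was tested. Levels of different miRNAs are not compared here, since each probe has its own brightness.

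Of the other miRNAs known to respond to p53, none passed as higher in CCL4 on the scaled values. A list of 16 such miRNAs was read, of which 15 were on the array, 7 were detected on enough arrays to be tested and 7 were detected on none. Among the 7 tested, miR-34a was the only 1 that passed as higher in CCL4, 5 passed as lower and 1 did not pass, beside 13.5% higher and 35.3% lower over all 133 tested. The median log2 fold change of the 7 was -0.51, beside -0.32 over all 133 tested. The lower ones were mmu-miR-192 (-0.66, adjusted p = 0.0219 by limma) and mmu-miR-194 (-0.60, 0.0232), a pair made from shared transcripts and abundant in hepatocytes, mmu-miR-107 (-0.66, 0.0201), which lies in an intron of a pantothenate kinase gene, and mmu-miR-15a (-0.51, 0.0232) and mmu-miR-16 (-0.41, 0.0442), neighbours known to repress cell cycle genes. The remaining one, mmu-miR-143, a miRNA of smooth muscle and fibroblasts, had a log2 fold change of 0.34 and an adjusted p of 0.122 by limma. Not detected on any array were mmu-miR-215, mmu-miR-145, mmu-miR-200c and mmu-miR-141, besides the miR-34b-3p and miR-34c rows. Without scaling, miR-34a (1.80) and miR-143 (1.01) passed as higher and none passed as lower, with a median of 0.16 beside 0.35 over all tested. The 5 lower calls were therefore calls relative to the array's percentile, and with or without scaling miR-34a had the highest value of the 7. None of the 5 lower calls was left without the CCL4 array of 4 weeks, without the olive oil array of 4 weeks or without that of 6 weeks, and 2 miRNAs of the list passed as lower without replicate 1 of the CCL4 arrays of 6 weeks.

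**Figure D4:**
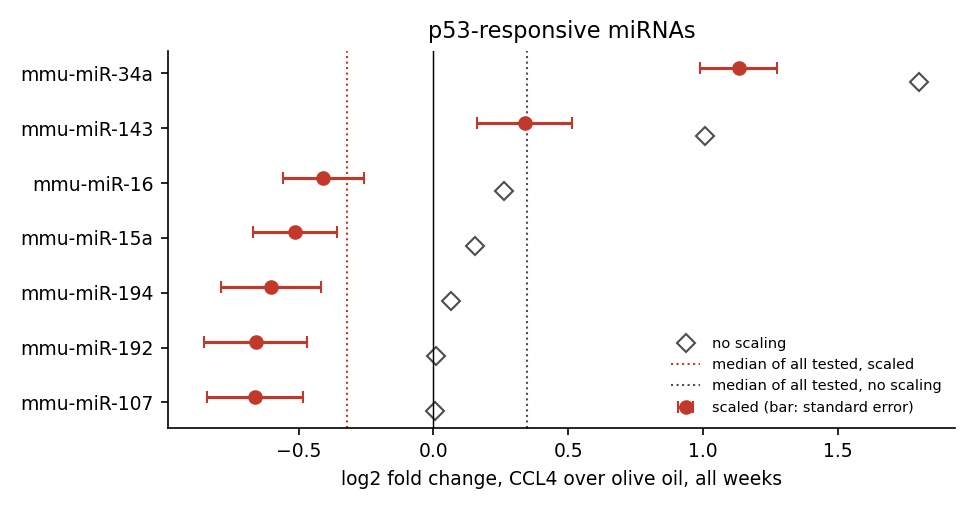
Log2 fold change over all weeks, CCL4 over olive oil (x axis), of the 7 tested miRNAs of the p53-responsive list (y axis). Red points with bars are scaled values with standard errors, open diamonds are unscaled values, and dotted lines are the medians over all 133 tested on each scale (-0.32 and 0.35). The value of mmu-miR-34a is the highest on both scales.

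The miRNAs whose scaled log2 levels followed miR-34a most closely over the 8 arrays were miR-199b* (Pearson r = 0.893), mmu-miR-802 (0.872), miR-379 (0.846), mmu-miR-200b (0.845) and mmu-miR-96 (0.843). The correlations are a description over 8 arrays that share the treatment difference and the divisor of each array, and the median r of the 132 other tested miRNAs was -0.41 scaled and 0.67 unscaled. On unscaled signals r was 0.957 for miR-199b*, 0.965 for miR-802, 0.746 for miR-379, 0.939 for miR-200b and 0.951 for miR-96. Of these, miR-96 was detected on 6 arrays and miR-379 on 3, and the place of miR-379 was set by scaled values at the floor, with rank 45 on unscaled signals. The order also depended on the divisor. With the percentile of miRNAs detected on all arrays, mmu-miR-200a ranked first (r = 0.950), against rank 16 on the main scaling. On that scale miR-200b had rank 2, miR-199b* 5, miR-802 6, miR-96 9 and miR-379 16. The signals of miR-802 were 25.6 units at 4 weeks, 23.2 and 33.8 at 6 weeks and 38.4 and 47.6 at 8 weeks of CCL4, against 12.7, 9.91 and 15.7 units in olive oil. Its groups did not overlap either, as for 19 of the 133 tested (14.3%) on unscaled signals, and miR-802 was chosen by its r on these arrays. Its log2 fold change over all weeks was 0.68 (adjusted p = 0.0232 by limma). That of miR-200b, an epithelial miRNA, was 0.45 (adjusted p = 0.0291), and that of miR-96, a member of the miR-183 cluster, was 0.62 (adjusted p = 0.0232), each smaller than that of miR-34a.

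Liver RNA holds RNA of several cell types, and in such bulk samples a change in the number of cells of a type and a change in the RNA per cell cannot be told apart. The liver label was checked by mmu-miR-122, the most abundant miRNA of hepatocytes, which was detected on all 8 arrays with 18497 to 35101 units in CCL4 and 24201 to 30018 units in olive oil. Marker lists that moved with treatment beside miR-34a are given here, and their part in its difference was not tested. Of 6 stellate cell and fibroblast miRNAs, 5 were tested and 4 passed as higher (mmu-miR-199a-5p, mmu-miR-199b, miR-199b* and mmu-miR-214, median of the 5 tested 0.74), beside 13.5% of all tested miRNAs, with a scaled level summed over the tested members of 30.6 to 50.3 in CCL4 and 22.4 to 29.4 in olive oil, while miR-145 was not detected. All 3 miRNAs of the hepatocyte list, miR-122, miR-192 and miR-194, passed as lower on the scaled values (median -0.66), beside 35.3% of all tested miRNAs. The list does not hold miR-802, which is also known from hepatocytes and passed as higher (0.68, adjusted p = 0.0232 by limma). The summed scaled level of the hepatocyte list was 2328 to 4120 in CCL4 and 5260 to 5882 in olive oil. Before scaling that hepatocyte sum was 21270 to 40742 units against 27682 to 34103 units, and 0 of the 3 on the list passed either way. Most of this sum is the signal of miR-122, so it mainly restates that miRNA.

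Of 5 biliary and other epithelial miRNAs, 2 were tested. Of these miR-200b passed as higher, beside 13.5% of all tested miRNAs, and miR-200a did not pass (0.25, adjusted p = 0.192 by limma). The scaled level summed over both was 3.78 to 5.65 in CCL4 and 3.62 to 4.02 in olive oil. The rows of mmu-miR-200c, mmu-miR-141 and mmu-miR-429 were not detected on any array. Summed over all 5, the scaled level was 4.58 to 7.34 in CCL4 and 4.16 to 4.43 in olive oil. Below detection, the signal of miR-429 was 6.34 to 12.1 units in CCL4 and 3.96 to 5.75 units in olive oil, while those of miR-200c and miR-141 overlapped. None of the 3 tested leukocyte miRNAs of a list of 5 passed (median -0.032, summed scaled level 44.0 to 136.9 against 58.4 to 95.1), and 1 of them, mmu-miR-223, passed as higher without scaling. Neither of the 2 endothelial miRNAs passed (median -0.34, 136.1 to 205.4 against 213.0 to 225.3), nor did either of the 2 erythroid miRNAs (median -0.49, 374.9 to 952.6 against 532.4 to 1215). Before scaling the endothelial sum was 888.4 to 2034 units in CCL4 against 1060 to 1422 units in olive oil. Most of the endothelial sum is the signal of mmu-miR-126-3p, and most of the erythroid sum that of mmu-miR-451. The summed stellate cell and fibroblast markers had scaled CCL4 levels above the olive oil levels on every array, by a narrow gap (30.6 against 29.4). Taken singly, 12 of the 133 tested miRNAs (9.02%), miR-34a among them, had such an order on the scaled values. The hepatocyte and endothelial sums had scaled CCL4 levels below the olive oil levels on every array, but their unscaled sums overlapped between the treatments. How many of all tested miRNAs lay below olive oil on every array was not counted. The leukocyte and erythroid sums overlapped between the treatments. The scaled biliary sum overlapped when limited to the tested members. It did not over the whole list, but that sum adds 3 miRNAs below detection on every array, so this separation is not read as a difference.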

How the data were processed

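Mouse liver RNA of 8 samples was read with 1 dye on Agilent miRNA arrays of 1 slide in 1 scan. The intensity values are, per the file headers, the background-subtracted total gene signals that the authors obtained with Feature Extraction 10.5.1.1, another software version and scanner than the methods name, with no scaling between arrays. The deposited processed table was checked to hold the log2 of these signals with values under 1 set to 1, to within 1.107e-06.

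For scaling, the 75th percentile over the 567 mouse miRNAs was found for each array and used as divisor, quotients below 0.01 were raised to 0.01, and log2 was computed. The 133 miRNAs detected on at least 3 arrays were tested (117 to 158 were detected per array, 113 on all). The number of arrays limits the precision. Treatment over all weeks was tested by limma 3.58.1 in R 4.3.3 with week as a factor (4 residual degrees of freedom), and contrasts of weeks and the interaction by a limma fit of the 6 group means (2 residual degrees of freedom), with Benjamini-Hochberg adjustment over the 133 and a threshold of 0.05. The procedure was tested on simulated data.

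The miRNA, its lists and the comparisons were chosen with earlier results of these data known. Named were miR-34a, its seed family, the p53-responsive list, the 5 tested miRNAs with the highest Pearson r with miR-34a, those with a larger fitted rise, and members of marker lists that moved. The replicate numbers of the CCL4 pairs of 6 and 8 weeks did not pair the arrays by their labels. Alternatives were other scalings, normexp with an offset of 50, the processed table, other detection filters, no week term, an intensity trend, the methods' t-test and leaving out each array. The slide row, whose term rests on 1 array and is not used, and the block for contrasts of weeks were added after seeing the data.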

Additional observations from a re-analysis of the deposited data

Results flagged for a closer look

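The row of mmu-miR-34b-5p, which entered no comparison because it did not pass the detection filter, passed the software's detection call in CCL4 liver at 4 weeks, where its signal was 8.07 units. The other 7 arrays were below detection for it, and the olive oil arrays gave -1.83 to 1.37 units. That array also had the most miRNAs called detected (158, with fewer on each of the others) and the lowest signal called detected (0.139 units, against 5.59 to 8.16). There was 1 CCL4 array at that week, so the signal has no replicate, and the cause was not tested.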

How the results depend on the processing

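The higher level of miR-34a in CCL4 over all weeks kept its direction under every alternative run and passed the threshold under all but the methods' t-test with Bonferroni adjustment (log2 difference 1.20, adjusted p = 0.478). Without each array in turn its log2 fold change was 1.09 to 1.16. With the percentile over miRNAs detected on all arrays, 10 miRNAs passed as lower, miR-34a at 8 weeks (1.13, adjusted p = 0.0541 by limma) and from 4 to 8 weeks of CCL4 (0.62) no longer passed, 2 p53-responsive miRNAs passed as higher and 1 as lower, and the median log2 fold changes were -0.46 for hepatocyte, 0.17 for leukocyte, 0.94 for stellate cell, -0.14 for endothelial and 0.55 for biliary miRNAs. With quantile normalization 18 passed as lower, miR-34a did not pass at 8 weeks (1.17, adjusted p = 0.0515 by limma) or from 4 to 8 weeks of CCL4 (0.47), 0 p53-responsive miRNAs passed as lower, and the medians were -0.14 for hepatocyte, 0.26 for leukocyte, -0.042 for endothelial and -0.062 for erythroid miRNAs. With no scaling 34 passed as higher and 0 as lower, 2 and 0 of them p53-responsive, miR-34a differed from 4 to 6 weeks of CCL4 by -0.074 and from 4 to 8 weeks by 0.77 without passing, its probes differed by 1.75 and 1.75, and the medians were 0.010 for hepatocyte, 0.64 for leukocyte, 1.41 for stellate cell, 0.33 for endothelial, 0.18 for erythroid and 1.02 for biliary miRNAs. Under the processed values, 45 passed as higher and 0 as lower, and miR-34a differed by -0.074 and 0.77 over the same weeks. With normexp 11 and 0 passed, and miR-34a did not pass at 6 weeks (0.99, adjusted p = 0.0664 by limma) or from 4 to 8 weeks of CCL4 (0.61). With no detection filter 5 passed as higher and 0 as lower, and with no week term 11 and 16. The methods' t-test passed 13 as higher and 61 as lower at an unadjusted p under 0.05. It passed 10 and 23 after Benjamini-Hochberg adjustment, and 0 and 1 after the Bonferroni adjustment that the methods also name.

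With the replicate number as a block the log2 difference of miR-34a from 4 to 8 weeks of CCL4 was 0.66 and no longer passed (adjusted p = 0.100 by limma), that over all weeks was 1.08, and no other call of miR-34a changed. Same-numbered CCL4 arrays of 6 and 8 weeks deviated with r = 0.0508 across 133 miRNAs, so the numbers were not shown to pair. Leaving out 1 array at a time left 8 to 14 miRNAs higher and 5 to 60 lower, 1 to 2 and 0 to 5 of them p53-responsive. The log2 difference of miR-34a was then 1.07 to 1.14 at 6 weeks, 1.12 to 1.30 at 8 weeks and 0.64 to 0.82 from 4 to 8 weeks of CCL4, each without passing when either CCL4 array of 8 weeks was left out. A contrast of a week could not be fitted without the only array of a treatment at that week. Where no cause is given, the cause was not tested.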
